A study of Rattus norvegicus with 12 samples.

Results

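The genes described here are 37 members of the unfolded protein response and the heat shock response, taken by symbol from a table of read counts for 17494 genes in the hippocampus of blast-exposed rats. All 37 were listed in the table. They were kept in 3 lists, namely 15 chaperones and folding enzymes of the endoplasmic reticulum (ER), 10 ER stress sensors, transcription factors and their stress targets, and 12 heat shock genes of the cytosol and the mitochondria. RNA came from 12 male wild-type Long Evans rats, which were 10 weeks old when they received 3 low-level blasts from a shock tube. The 6 blast-boldine rats were given boldine, an alkaloid of the boldo tree, in their diet at 500 mg/kg from the second week after blast exposure. Treatment lasted until sacrifice, 29 weeks after blast exposure, and the 6 blast-controls ate the same diet lacking boldine. The labels give the tissue as brain and the study's methods as hippocampus. No sham-exposed rat was sequenced, so the comparison addresses boldine among blast-exposed rats and not the blast itself. Each rat gave 1 library of total RNA after depletion of ribosomal RNA.

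Proteins that enter the ER are folded by resident chaperones, and when unfolded proteins build up, 3 membrane sensors (IRE1, encoded by Ern1, PERK, encoded by Eif2ak3, and ATF6) set off the unfolded protein response. IRE1 splices the mRNA of Xbp1, PERK slows translation and thereby favours ATF4, and XBP1 and ATF6 raise the chaperone genes, while ATF4 raises Ddit3 (CHOP), Trib3, Chac1, Asns and Sesn2. The heat shock response is a separate program for the cytosol, in which the transcription factor HSF1 raises HSP70, HSP90, HSP40 and small heat shock proteins. In neurons many of these chaperones are abundant without stress. The counts are of whole genes, so the spliced and unspliced forms of Xbp1 are not separated, and neither translation nor protein was measured.

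Of the 12 libraries, 11 held between 10148474 and 40850106 counts, and the library of blast-control rat 6 held 74008. Levels are given as CPM, counts relative to library size after TMM scaling. A total of 3 counts corresponded to 47.5 CPM in rat 6 and to at most 0.307 CPM elsewhere, and these limits cover counting error only. From the suffixes of their names the libraries were divided into 2 sets of 6, each with 3 rats of either group. The sets were inferred, since the names do not state them. Requiring also that rat numbers increase along the suffixes inside a set left 4 divisions, of which the one used here was picked for its share of the first principal component of the 11 deeper libraries, 95.1%, and treatment accounted for 1.53% of that component. Set A consists of blast-controls 1, 7 and 9 and blast-boldine rats 20, 32 and 35, and set B of blast-controls 4, 5 and 6 and blast-boldine rats 12, 17 and 19. What the sets were in the laboratory is not given in the sources used here. Treatment differences are therefore given over all 12 rats, and again over 11 rats with the set in the model.

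The ER and cytosolic branches are told apart by the DNA elements through which they act. These are shown first because the members are listed by element again further on. Promoters of 29 of the 37 members were found in RefSeq (build GRCr8), as 250 bases before and 50 bases after the gene start. Those of Pdia3, Pdia6, Manf, Ern1, Atf6, Hsf1, Hsp90aa1 and Cryab were missing, so these members were not searched for any element. The ER stress element of ATF6 and XBP1, searched as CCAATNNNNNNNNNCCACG on both strands, lay in the promoters of 7 members, Hspa5, Hsp90b1, Calr, Canx, Creld2, Dnajc3 and Xbp1, and in 0.0657% of 33469 promoters in all. Its second form, ATTGG and CCACG with 1 base between, lay in Herpud1, Hyou1 and Dnajb11 and in 0.0508% of all promoters. The element TGACGTGG lay in Hyou1 alone among the 29 members searched, overlapping that second form there, and in 0.595% of all promoters. The site TGATGCAA, bound by ATF4 with its partners, lay in Chac1 and Herpud1 and in 0.795% of all promoters. The heat shock element, searched as GAA, TTC and GAA with 2 bases between each, lay in Hspa8, Hsph1, Dnaja1, Hspd1 and Hspe1 and in 0.798% of all promoters. A match describes letters only and is no measurement of binding.

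The stretches below carry examples, with the match in capitals, read as its reverse complement where it lies on the other strand. They are Hspa5 (chr3:38452913-38453015, plus strand) and Hsp90b1 (chr7:23012294-23012529, minus strand) for the ER stress element, Herpud1 (chr19:10614761-10614951, minus strand) for its second form together with an ATF4 site, Chac1 (chr3:126795904-126796031, plus strand) for the ATF4 site and Hspe1 (chr9:64084202-64084326, plus strand) for the heat shock element, all in GRCr8 and written 5′ to 3′ along the gene.
Hspa5: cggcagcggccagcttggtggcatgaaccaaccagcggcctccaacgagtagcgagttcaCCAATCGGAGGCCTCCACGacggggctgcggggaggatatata
Hsp90b1: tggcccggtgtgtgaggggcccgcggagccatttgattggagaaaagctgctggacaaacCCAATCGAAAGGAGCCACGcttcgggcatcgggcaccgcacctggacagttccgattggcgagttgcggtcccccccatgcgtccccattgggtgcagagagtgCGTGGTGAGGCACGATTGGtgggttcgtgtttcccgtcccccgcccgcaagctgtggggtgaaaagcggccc
Herpud1: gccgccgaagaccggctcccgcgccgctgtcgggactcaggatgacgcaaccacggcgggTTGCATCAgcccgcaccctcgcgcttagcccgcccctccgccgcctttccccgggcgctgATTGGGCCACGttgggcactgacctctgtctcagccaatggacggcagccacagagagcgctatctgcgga
Chac1: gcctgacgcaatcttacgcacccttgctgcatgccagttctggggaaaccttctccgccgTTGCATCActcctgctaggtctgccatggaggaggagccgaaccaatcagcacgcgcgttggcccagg
Hspe1: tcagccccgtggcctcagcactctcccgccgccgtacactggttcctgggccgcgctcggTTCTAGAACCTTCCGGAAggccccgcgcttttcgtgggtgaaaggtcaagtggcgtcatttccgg
In Hsp90b1 the element occurs on both strands, and in Hspe1 the matches of both strands overlap and form 1 run. Hspd1, which encodes the mitochondrial chaperonin HSP60, begins on the opposite strand beside Hspe1, its co-chaperonin HSP10, and the same run lies upstream of both. In the build of the count table (mRatBN7.2) Hspd1 lies at chr9:56579196-56589622 and Hspe1 at chr9:56589912-56592999, with 289 bases between them.

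Levels between genes are compared as CPM per kilobase of exon, over the 11 rats without rat 6. Over these rats pooled, the cytosolic HSP90 genes had the highest means. Hsp90ab1, the constitutive HSP90, stood at 799 ± 267 CPM per kilobase (SD, n = 11) and Hsp90aa1, the inducible HSP90, at 377 ± 206. Next came the ER lectin chaperone calreticulin (Calr, 321 ± 60.5), the ER HSP90 (Hsp90b1, 272 ± 107) and the ER HSP70 known as BiP (Hspa5, 180 ± 26.4). Among sensors and targets Atf4 (99.6 ± 17.7), Xbp1 (64.1 ± 7.49) and Ddit3 (43.1 ± 18.1) led, and the HSP40 co-chaperone Dnaja1 (156 ± 18.2) was the third of the heat shock genes. This order of means was not the same in both library sets. In set A Calr (277) was above Hsp90aa1 (203), Asns (47.4) above Ddit3 (29) and Hspa8 (161) above Dnaja1 (147) in CPM per kilobase, and in set B each of these pairs stood the other way. The lowest members were Ern1 (4.35 ± 0.783), the glutathione-degrading enzyme Chac1 (4.12 ± 1.69) and the pseudokinase Trib3 (0.0912 ± 0.0564), which had 0 to 6 counts per library and was not tested.

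Of the 36 pairs of neighbours in the order of levels, 29 were closer than the larger SD of the pair. The 7 steps that exceeded it were those below Hsp90ab1, Pdia3, Dnajb11, Dnajb1, Creld2, Sesn2 and Chac1. The wide spread of Hsp90aa1, Hsp90b1 and Ddit3 followed the library sets, whose values did not overlap for these genes. RefSeq names pseudogenes after 8 of the members, 33 after Hspa8, 23 after Hsp90ab1, 20 after Hspd1 and 16 after Hsp90aa1. Reads that fit a gene and such a copy equally were, by the stated command, not assigned to a gene, so the levels of these 4 are uncertain.

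**Figure D1:**
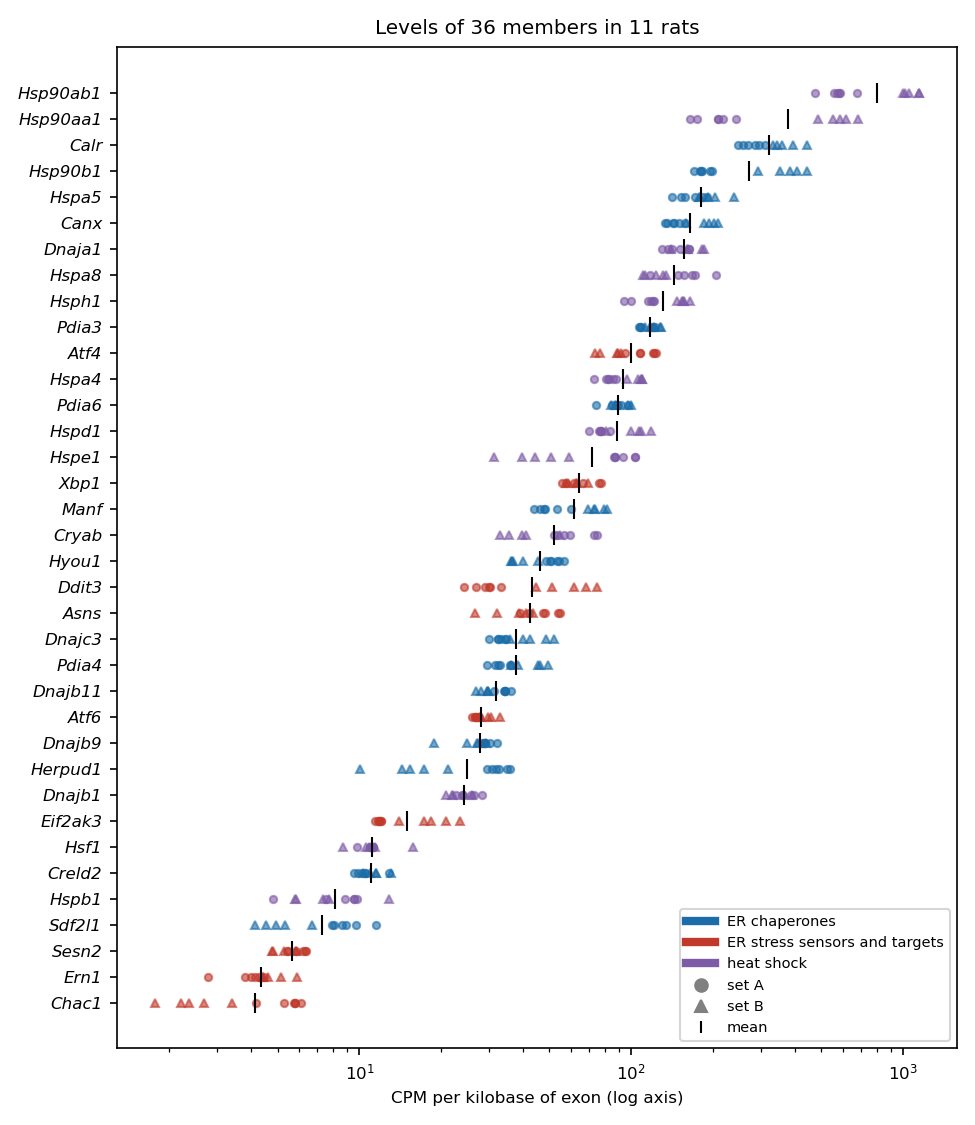
Levels of 36 members in CPM per kilobase of exon (log axis), 1 point per rat for the 11 rats other than rat 6, circles for set A and triangles for set B, with the mean as a bar. Hsp90ab1 has the highest mean, at 799, and Chac1 the lowest of those drawn, at 4.12, and in Hsp90aa1, Hsp90b1, Ddit3, Herpud1, Hspe1 and Eif2ak3 circles and triangles stand apart.

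No member differed between blast-boldine rats and blast-controls past the adjusted threshold. With all 12 rats, 0 of the 36 members tested had an adjusted p under 0.05 in edgeR, as did 0 of 12325 genes (0%), and 0 of 36 had an unadjusted p under 0.05, against 1.07% of all genes. Leaving out rat 6 also gave 0 members at that unadjusted level (1.4% of all genes). With the set in the model, the members at an unadjusted p under 0.05 were 2 with all 12 rats (3.85% of all genes), Ern1 and Chac1, and 3 of 36 without rat 6 (5.35% of all genes), Pdia6, Ern1 and Chac1. In that last fit every adjusted p was at least 0.90, the largest difference was that of Hspb1 at -0.39 on the log2 scale, and the 95% intervals reached at most 0.44 to either side of the estimate. DESeq2 on all 12 rats gave 0 members past the adjusted threshold and 1 at an unadjusted p under 0.05, Hsp90ab1. The log2 fold change of Hsp90ab1 was 0.01 in edgeR with the set and without rat 6. The share of all genes at the unadjusted level in DESeq2 is not given here.

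Most ER chaperone estimates were slightly above 0 once rat 6 was set aside. With treatment alone in the model and 11 rats, 11 of 15 were above 0, with a median of 0.13 on the log2 scale, and with the set and all 12 rats 8 of 15 were above 0, with a median of 0.00. With the set in the model and 11 rats, 12 of 15 estimates were above 0 (47.4% of all genes), with a median log2 fold change of 0.09 and a range from -0.06 to 0.17. With all 12 rats 6 of 15 were above 0 (51.3% of all genes) and the median was -0.05. In 8 of 15 the blast-boldine mean was higher within set A and within set B, against 28.5% of all genes. These estimates share their rats and are not independent of each other.

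Pdia6, a protein disulfide isomerase that forms and rearranges disulfide bonds, was the ER chaperone past the unadjusted level. Its values were 31.7, 145 and 152 CPM in the lowest, median and highest blast-control and 151, 163 and 172 CPM in the blast-boldine rats. The lowest control was rat 6, where 31.7 CPM is 2 counts. Of the 6 blast-boldine rats, 5 were above every control and the groups overlapped by 1 rat, blast-boldine rat 19. Without rat 6 the means were 162 ± 8.3 (SD, n = 6) and 144 ± 9.31 CPM (n = 5). The log2 fold change was 0.16 (SE 0.06, 95% interval 0.02 to 0.29), and its edgeR p was 0.0272 unadjusted and 0.90 adjusted. In an exact two-sided permutation test of log2 CPM the p was 0.00433 over 12 rats, where rat 6 enters with 2 counts. It was 0.00866 over 11 rats and 0.015 within sets over 11, from 200 assignments. These permutation p-values are unadjusted and come from the same values as the edgeR p that picked the gene. Within the sets the difference in mean log2 CPM was 0.17 in set A and 0.15 in set B. Without rat 6 the groups did not overlap at all in 0 of 36 members and in 0.152% of all genes.

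Dnajc3, the ER-resident HSP40 that also inhibits PERK, had the largest fold change in this list without rat 6. It ran from 31.7 over 50.5 to 60.5 CPM in blast-controls and from 48.8 over 58.6 to 78.7 CPM in blast-boldine rats. The 3 blast-boldine rats of set B were above every control and those of set A were not. The log2 fold change with the set in the model was 0.17 (SE 0.09, 95% interval -0.02 to 0.35), 0.05 within set A and 0.33 within set B as differences of log2 CPM, and the edgeR test of the difference between sets had an adjusted p of 0.88.

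Hspa5, the BiP chaperone that holds the sensors inactive, overlapped between groups. Its lowest, median and highest values were 363, 463 and 855 CPM in blast-controls and 404, 470 and 610 CPM in blast-boldine rats. The highest control was rat 6. The log2 fold change was -0.01 (SE 0.20) over 12 rats and 0.13 (SE 0.09, 95% interval -0.06 to 0.33) over 11 rats with the set.

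Calr, which with calnexin (Canx) folds glycoproteins, ran from 460 over 612 to 2185 CPM in blast-controls and from 503 over 584 to 827 CPM in blast-boldine rats. Hsp90b1 ran from 478 over 684 to 3325 CPM and from 502 over 772 to 1244 CPM in the same order. Rat 6 was the highest control for both, and the signs turned with it. Over 12 rats the log2 fold changes of Calr, Hsp90b1 and Canx were -0.35, -0.43 and -0.27, and over 11 rats with the set 0.10, 0.09 and 0.11. Neither fit placed any of them past the unadjusted level.

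The remaining ER chaperones did not pass the unadjusted level. With the set and without rat 6, Pdia4 was at 0.15, Manf, a secreted ER stress protein, at 0.09, Dnajb9 at 0.07, Pdia3 at 0.03, Creld2 at 0.02 and Dnajb11 at 0.01 on the log2 scale. Herpud1, part of the machinery that clears misfolded ER proteins, was at -0.01, Sdf2l1 at -0.04 and the large HSP70-related chaperone Hyou1 at -0.06. Their 95% intervals all included 0.

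RNA of the choroid plexus, a secretory tissue beside the hippocampus, varied between libraries. The sum of its 5 markers ran from 8.69 to 1189 CPM in blast-boldine rats (median 442) and from 14 to 1169 CPM in the 5 deeper blast-controls (median 15.2), and all 5 had 0 counts in rat 6. In the fit with the set and without rat 6 all 5 markers were above 0, with a median log2 fold change of 0.77. Of these 5 markers 0 passed the unadjusted level there. In the same fit all 5 ependymal markers were above 0 and 1 passed it (Ccdc153, 0.93, SE 0.27 on the log2 scale), all 5 meningeal markers were above 0 and 2 passed (Slc6a13, 1.03, SE 0.30, and Lum, 0.77, SE 0.24), and all 6 microglial markers were below 0 and 1 passed (Tmem119, -0.47, SE 0.14), each with an edgeR adjusted p of 0.90. All 6 astrocyte and all 6 oligodendrocyte markers were also below 0. Of the endothelial and pericyte markers 5 of 6 were above 0, and of the neuronal markers 3 of 7. Among the markers of these cell types 0 passed the unadjusted level. The part of such tissue and cells in the ER values was not tested, and in bulk RNA fewer cells of a type and less RNA per cell cannot be told apart.

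**Figure D2:**
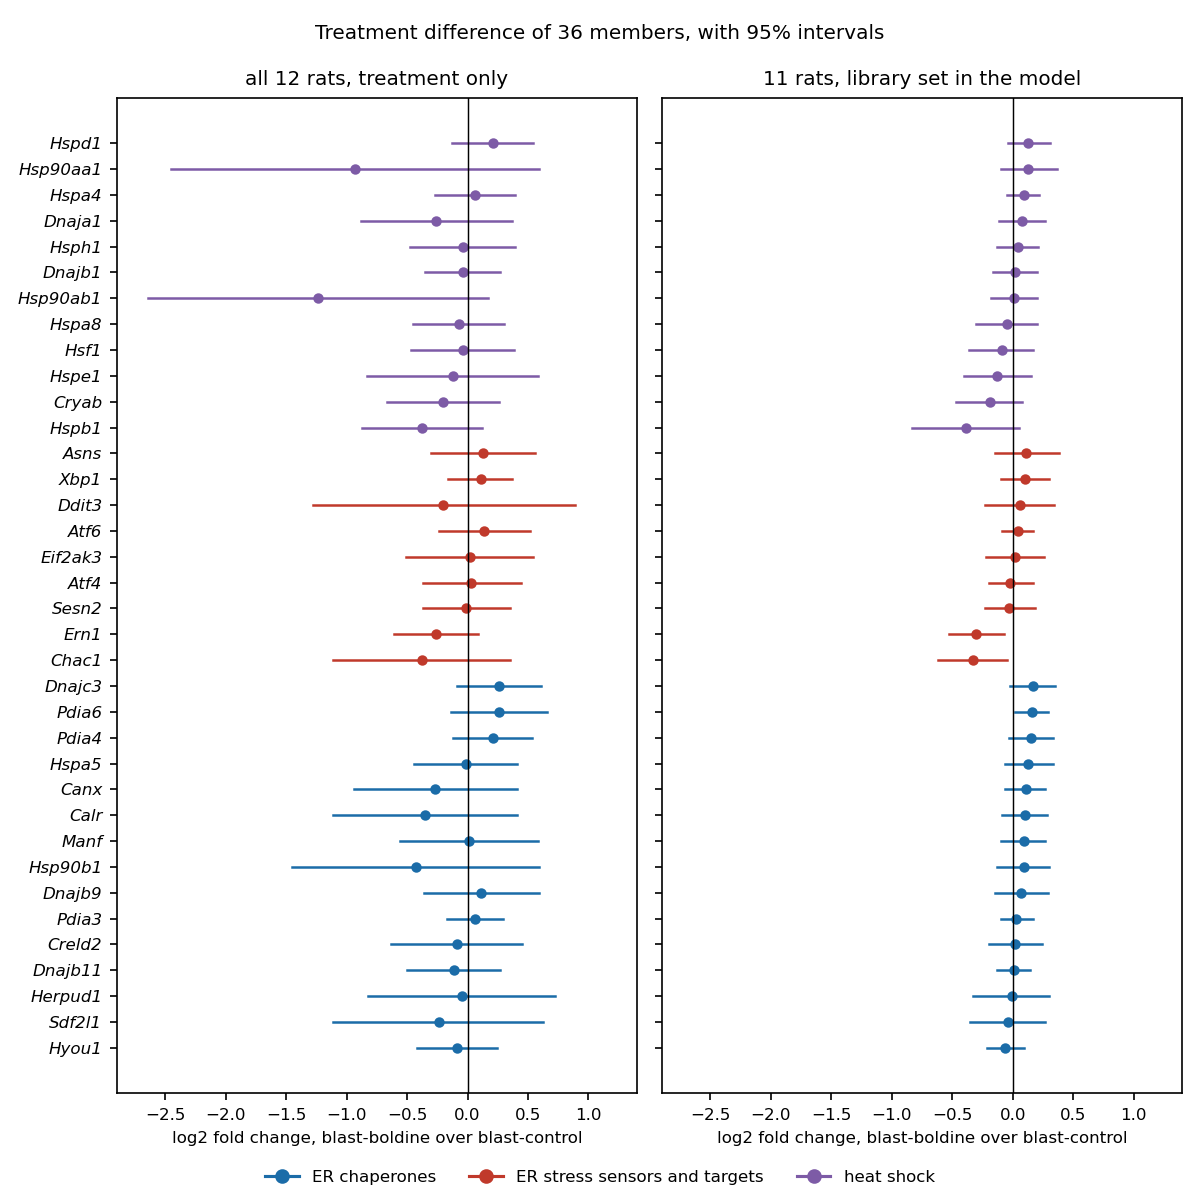
Log2 fold change of blast-boldine over blast-control for 36 members, with 95% intervals, by list, from all 12 rats (left) and from 11 rats with the library set in the model (right). On the left Hsp90ab1 at -1.24 and Hsp90aa1 at -0.93 have the widest intervals, and on the right only the intervals of Pdia6, Ern1 and Chac1 leave out 0.

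Among the ER stress sensors and targets, 5 of 9 tested estimates were above 0 with the set and without rat 6 (median 0.02), and the pair past the unadjusted level was lower with boldine. Ern1, the sensor kinase and RNase IRE1, ran from 12.2 over 14.2 to 17.4 CPM in blast-controls and from 8.16 over 12.4 to 13.6 CPM in blast-boldine rats. Of the blast-boldine rats, 3 were below every control. The means without rat 6 were 11.8 ± 2.01 (SD, n = 6) and 14.1 ± 2.16 CPM (n = 5). The log2 fold change was -0.30 (SE 0.11, 95% interval -0.53 to -0.07), with an edgeR p of 0.0138 unadjusted and 0.90 adjusted. It was -0.30 within set A and -0.30 within set B. The exact two-sided permutation p was 0.0476 over 12 rats, 0.106 without rat 6 and 0.035 without rat 6 within sets.

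Chac1, a target of ATF4 and CHOP, was among the lowest-expressed members tested. It had 0 counts in rat 6, and the blast-controls ran from 0 over 7.16 to 9.58 CPM and the blast-boldine rats from 2.78 over 5.1 to 9.06 CPM. In set B all 3 blast-boldine rats were below both deeper controls, in set A 2 of 3 were below every control of that set, and no library of set B reached set A. The log2 fold change was -0.33 (SE 0.13, 95% interval -0.62 to -0.05) with the set and without rat 6, with an edgeR p of 0.0248 unadjusted and 0.90 adjusted. The difference of mean log2 CPM was -0.22 in set A and -0.51 in set B. The exact permutation p within sets over 11 rats was 0.01, from 200 assignments. Without the restriction to sets the exact permutation p over 11 rats was 0.249. Over 12 rats the exact permutation p was 0.874, and 0.995 within sets, and the difference had the opposite sign, with rat 6 as the lowest control at 0 counts.

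The other targets of ATF4 did not pass the unadjusted level. Asparagine synthetase (Asns) was at 0.11 and the stress protein Sesn2 at -0.03 on the log2 scale. Ddit3, the CHOP factor, ran from 20.9 over 32.3 to 269 CPM in blast-controls and from 23.1 over 36.3 to 58.8 CPM in blast-boldine rats, with rat 6 as the highest control. Its log2 fold change was -0.20 (SE 0.50) over 12 rats and 0.06 (SE 0.13, 95% interval -0.23 to 0.34) over 11 with the set. Ddit3 shares 62 exon bases with Mars1 on the opposite strand, and counting was by strand.

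Atf4 ran from 63.3 over 132 to 170 CPM in blast-controls and from 104 over 139 to 174 CPM in blast-boldine rats. Xbp1 ran from 95 over 106 to 140 CPM and from 108 over 118 to 143 CPM in the same order. The groups overlapped for both, with rat 6 as the lowest control. The log2 fold changes with the set and without rat 6 were -0.02 (SE 0.08, 95% interval -0.20 to 0.17) for Atf4 and 0.10 (SE 0.09, -0.10 to 0.30) for Xbp1. The other sensors, Eif2ak3 and Atf6, were at 0.02 and 0.04.

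The cytosolic and mitochondrial heat shock genes were divided in sign. With the set and without rat 6, 7 of 12 estimates were above 0 with a median of 0.02, and 0 of 12 passed the unadjusted level. Over all 12 rats 2 of 12 were above 0 with a median of -0.10, and without rat 6 the median was 0.05. Hsp90ab1 ran from 1110 over 1957 to 18715 CPM in blast-controls and from 1330 over 1872 to 2670 CPM in blast-boldine rats. Hsp90aa1 ran from 459 over 979 to 8914 CPM and from 486 over 1109 to 1908 CPM in the same order, and Dnaja1 from 209 over 244 to 807 CPM and from 228 over 260 to 298 CPM. In all of them rat 6 was the highest library.

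Over 12 rats the log2 fold change of Hsp90ab1 was -1.24 (SE 0.65), that of Hsp90aa1 -0.93 (SE 0.71) and that of Dnaja1 -0.26 (SE 0.29). Over 11 rats with the set they were 0.01 (SE 0.09, 95% interval -0.18 to 0.20), 0.13 (SE 0.11, -0.10 to 0.37) and 0.08 (SE 0.09, -0.11 to 0.27). Hspb1, the small heat shock protein HSP27, had the largest difference of the list without rat 6. It had 0 counts in rat 6, ran from 5.22 to 11.4 CPM in the other blast-controls and from 4.28 over 6.63 to 8.49 CPM in blast-boldine rats, and the groups overlapped. Its log2 fold change with the set was -0.39 (SE 0.20, 95% interval -0.83 to 0.05).

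The other small heat shock protein, alpha-B crystallin (Cryab), was at -0.19 and Hsf1, the factor of the response, at -0.09. The HSP70 member Hspa8 was at -0.05 and Hspa4 at 0.09. Hsph1, an HSP110 that acts as a nucleotide exchange factor of HSP70, was at 0.04 and Dnajb1, an HSP40 strongly induced by HSF1, at 0.02. The mitochondrial pair was at 0.13 for Hspd1 and -0.13 for Hspe1. All of these 95% intervals included 0.

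**Figure D3:**
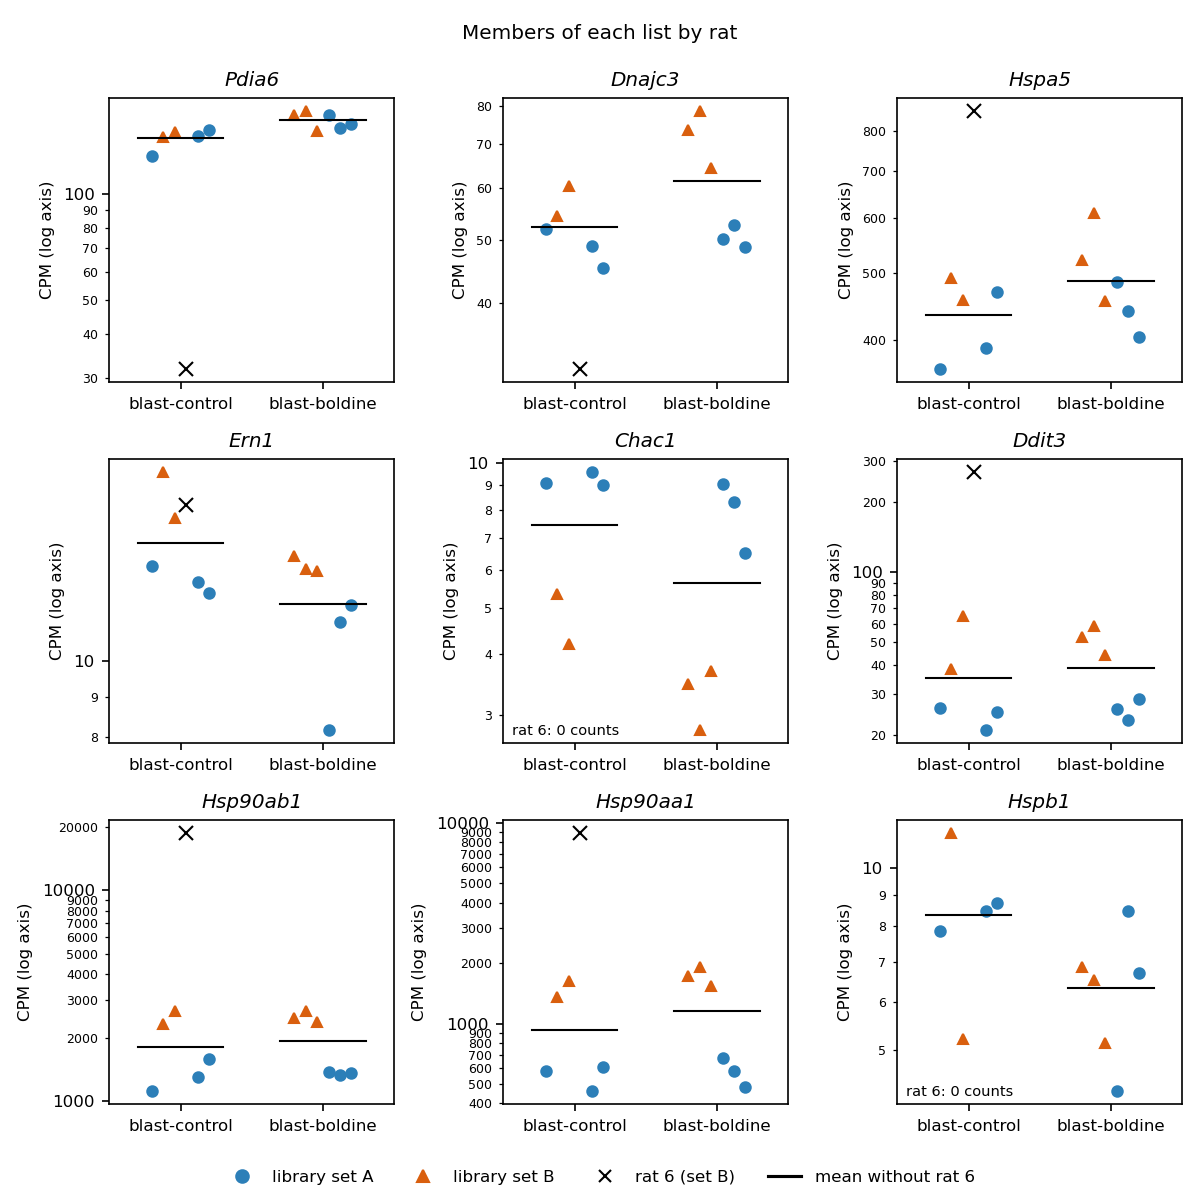
CPM of 9 members by rat (log axes), in blast-controls and blast-boldine rats, circles for set A, triangles for set B, a cross for rat 6 and a bar for the mean without rat 6. Pdia6 has 5 of 6 blast-boldine rats above every control, Chac1 separates by set more than by treatment, and rat 6 is far above the other libraries in Ddit3, Hsp90ab1 and Hsp90aa1.

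Genes of the same pathways outside the members gave few calls. Of 105 such genes listed, 99 were tested, and with the set and without rat 6, 1 was higher and 2 were lower at an unadjusted p under 0.05 (5.35% of all genes), with 0 past the adjusted threshold in edgeR. The higher gene was Hspa14, a ribosome-associated HSP70 (log2 fold change 0.18, SE 0.08). The lower genes belonged to the sensors and the integrated stress response, namely Atf5, a factor related to ATF4 (-0.29, SE 0.11), and Creb3l2, an ER membrane-bound factor (-0.21, SE 0.09). Of 13 genes of ER-associated degradation, 19 of ER redox, lectin and translocon functions and 6 of mitochondrial chaperones and proteases tested, 0 passed that level. The 36 other cytosolic chaperones and co-chaperones had 29 estimates above 0 (47.4% of all genes) with a median of 0.06. Estimates above 0 were 8 of 13 for ER-associated degradation and 13 of 19 for ER redox, lectin and translocon genes. They were 13 of 25 for the other sensors and integrated stress response genes and 2 of 6 for the mitochondrial genes.

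The members differed between the library sets far more than between treatments, and in both directions within each list. With treatment in the model and rat 6 left out, 26 of 36 members had an adjusted p under 0.05 in edgeR. Of these, 16 were higher in set B (34.7% of all genes were) and 10 lower (33.5% of all genes), so the share of members was near that of all genes. The median absolute log2 difference between sets was 0.39 in members and 0.47 in all genes. Between treatments it was 0.09 in members and 0.08 in all genes. In 32 of 36 members the difference by set was larger than that by treatment, as in 10930 of 12529 genes. The sets were chosen from these same libraries, so the p-values describe them and are not independent evidence.

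The 3 lists each split. Of the ER chaperones 7 were higher in set B and 4 lower, of the sensors and targets 4 and 3, and of the heat shock genes 5 and 3. Hsp90aa1 differed most, from 565 ± 79.6 CPM in set A (SD, n = 6) to 1631 ± 206 CPM in set B (n = 5), a log2 difference of 1.53 (SE 0.11). Hsp90ab1 went from 1341 ± 152 to 2502 ± 160 CPM (0.91, SE 0.09), and the ER member of the family, Hsp90b1, from 517 ± 29.5 to 1055 ± 161 CPM (1.03, SE 0.10). For all 3 HSP90 genes no library of set A reached set B. Their reads took 0.241 to 0.277% of counts in set A and 0.424 to 0.553% in set B without rat 6.

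Targets of the PERK branch stood on opposite sides. Ddit3 was higher in set B, at 51.7 ± 10.6 against 24.9 ± 2.66 CPM (log2 difference 1.06, SE 0.13), and Chac1 was lower, at 3.89 ± 0.952 against 8.6 ± 1.1 CPM (-1.11, SE 0.13). Atf4 was lower in set B (-0.41), as was Asns (-0.38), whereas all 3 sensors were higher, Eif2ak3 by 0.68, Ern1 by 0.37 and Atf6 by 0.16. Xbp1 and Sesn2 did not pass the threshold.

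Taken by the promoter groups shown above, members past the threshold had the same sign within each group, except that of the heat shock element. Of the 7 members with the first form of the ER stress element, Hsp90b1, Calr, Canx, Dnajc3 and Hspa5 were higher in set B, by 1.03, 0.43, 0.40, 0.40 and 0.25, and Creld2 and Xbp1 did not pass the threshold. The 3 with the second form were lower, Herpud1 by a log2 difference of -1.04, Hyou1 of -0.41 and Dnajb11 of -0.23. Chac1 and Herpud1, with the ATF4 site, were both lower, by -1.11 and -1.04. Of the 5 members with the heat shock element, Hsph1 was higher (0.49), Hspa8 lower (-0.38) and Dnaja1 (0.18) did not pass the threshold. The other members with this element, Hspd1 and Hspe1, which share their upstream run, differed in sign. Hspd1 was at 171 ± 10.1 CPM in set A and 229 ± 30.7 in set B (0.42, SE 0.08), and Hspe1 at 63.4 ± 5.52 and 30.5 ± 7.18 CPM (-1.03, SE 0.13). This grouping was looked at after the values were seen and has no test.

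Transcript length and cell markers moved with the sets as well. The 16 members higher in set B had a median of 2674 exon bases and the 10 lower members 1706, and over all genes called the medians were 2600 and 1906. The summed CPM of 6 microglial markers was 311 to 353 in set A and 132 to 216 in set B, with 5 of 6 called lower, and that of 6 endothelial and pericyte markers 110 to 153 and 239 to 304, with 5 of 6 called higher. Of 6 oligodendrocyte markers 5 were called lower in set B (sums of 4098 to 7327 CPM in set A and 2998 to 5319 in set B), and of 6 astrocyte markers 3 (4265 to 5313 and 3734 to 5101). The 7 neuronal markers summed to 3622 to 5287 CPM in set A and 4921 to 6732 in set B, with 3 called higher and 1 lower. Of 5 ependymal markers 1 was called higher and 2 lower in set B, and of 5 meningeal markers 2 were called lower. The part of transcript length and of these cell types in the member differences was not tested.

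**Figure D4:**
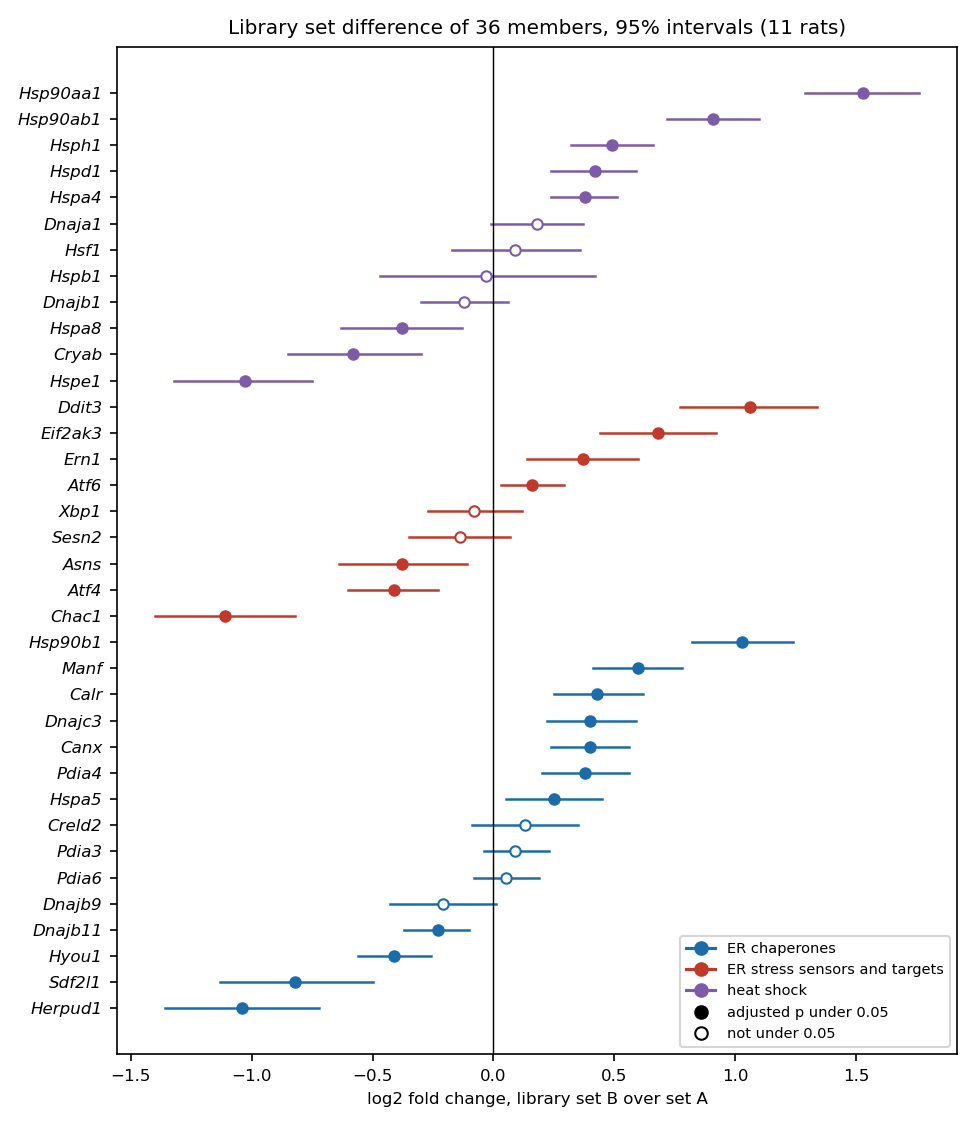
Log2 fold change of library set B over set A for 36 members, with 95% intervals, from 11 rats with treatment in the model; filled points have an adjusted p under 0.05. Each list holds members on both sides of 0, from Hsp90aa1 at 1.53 to Chac1 at -1.11.

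The treatment difference itself was compared between the sets. No member had an interaction p under 0.05 (0 of 36, against 5.64% of all genes), and 0 of 12529 genes passed the adjusted threshold in edgeR. The closest member was Atf6, with a log2 difference between sets of 0.22 and an adjusted p of 0.88 in edgeR.

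Rat 6 remains to be described, since its values turn the sign of several members. Its 37 members together took 3.49% of the counts, against 0.73 to 1.13% in the other 11 libraries. Hsp90ab1 alone took 1.6% with 1182 counts and ranked 1 among all genes, where its rank elsewhere was 7 to 32, and Hsp90aa1 ranked 3. Against the mean of the other 5 libraries of set B, Hsp90ab1 was 7.48 times as high (95% counting interval 7.06 to 7.92) and Hsp90aa1 5.46 times (5.02 to 5.93). The intervals cover counting error only, and Hsp90aa1 had 563 counts.

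The ER members Hsp90b1, Calr and Canx, with 210, 138 and 161 counts, were 3.15, 3.13 and 2.7 times as high in rat 6 as in set B, and Hspa5 with 54 counts was 1.69 times (1.27 to 2.2). Ddit3 with 17 counts was 5.21 times (3.03 to 8.34) and Dnaja1 with 51 counts 3.02 times (2.25 to 3.97). The chaperones Hspa4 and Hspa8 were at 1.16 times (0.806 to 1.61) and 1.23 times (0.752 to 1.9), and these intervals include 1. The exact Poisson interval of 10 of 36 members lay above all 11 other libraries, against 4.49% of all genes. That of 1 member, Pdia6 with 2 counts, lay below all of them, against 2% of all genes. In rat 6, 12 of 36 members and 7775 of 12325 genes had under 3 counts, so these shares compare genes of unlike depth. The part of expression level in the contrast was not tested. Members with 0 counts, such as Herpud1, Dnajb9, Hsf1 and Hspb1, could have up to 58.4 CPM by the Poisson interval. No lower level was therefore detectable for them at this depth. Of the cell markers, the neuronal sum in rat 6 was 10988 CPM, above the 3622 to 6732 CPM of the other libraries. In rat 6, 4 of 6 microglial and 4 of 6 endothelial and pericyte markers had 0 counts. The same held for 4 of 5 ependymal, 3 of 5 meningeal and all 5 choroid plexus markers. As 1 count is 15.8 CPM in rat 6, 0 counts show no lower level for markers near that level. What part cells or RNA quality had in these values was not tested.

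**Figure D5:**
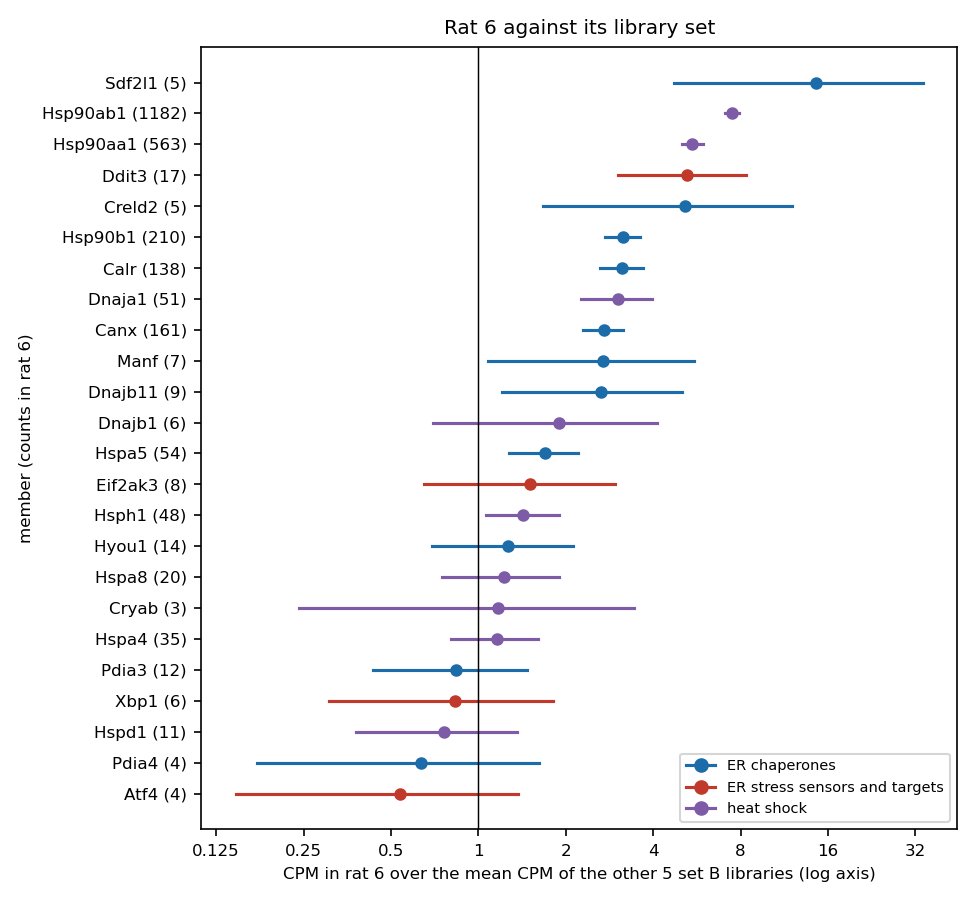
CPM of rat 6 over the mean CPM of the other 5 libraries of set B (log axis), for the 24 members with at least 3 counts in rat 6, with 95% counting intervals and the counts in brackets. Hsp90ab1 at 7.48 and Hsp90aa1 at 5.46 have narrow intervals, and Sdf2l1 at 14.5 rests on 5 counts.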

How the data were processed

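The authors used HTStream to clean the reads and to drop PCR duplicates, STAR 2.7.11b for the alignment (mRatBN7.2), and featureCounts (Subread 2.0.1) to assign read pairs, strand by strand, to exons of named genes. The deposited values are counts, whole numbers without normalization, for 17494 genes in 12 libraries, 1 rat each. Rats were grouped by treatment from the labels.

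Genes were tested with edgeR 4.0.16 (R 4.3.3), by the quasi-likelihood test with TMM scaling, filterByExpr at 10 counts and Benjamini-Hochberg adjustment over all genes, at 0.05. CPM use TMM scaling, and log2 CPM a prior count of 2. Rat 6 lowers precision where it enters. Single members were also compared by exact permutation over 924 assignments (400 within sets, and 462 and 200 without rat 6). Permutation p-values are unadjusted over members. They are given only for members past the unadjusted edgeR level in the same values, so they are not independent support. Intervals are t-based for fold changes and exact Poisson for counts. The edgeR fits were tested on simulated counts. Alternatives were DESeq2 1.42.0, RLE size factors, no filter, the library set, and each rat left out. The study's methods name a later DESeq2. Permutations ran in Python 3.11.15 (scipy 1.17.1, numpy 2.4.6), tables in pandas 2.3.3 and plots in matplotlib 3.10.9.

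All 37 members are accounted for. Values by rat are given for members with an unadjusted p under 0.05 in any of 4 edgeR fits (treatment, with or without the set, with or without rat 6), the top 3 of each list by level, and the largest fold change of each list without rat 6. Pathway genes are named where p was under 0.05 with the set and without rat 6, at most 3 per direction and list. The members and lists were chosen with earlier results of these data known. Promoters are from RefSeq, GRCr8, whose coordinates were not mixed with those of the count table.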

Additional observations from a re-analysis of the deposited data

Results flagged for a closer look

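Of the 14 members with values by rat, 8 had 1 rat standing apart within its group of 6, by a gap to the nearest rat above 0.625 of the group's range, and each time the rat was blast-control rat 6. Rat 6 was the highest control for Hspa5 (855 CPM, next 491), Hsp90b1 (3325, next 1145), Calr (2185, next 666), Ddit3 (269, next 64.5), Hsp90aa1 (8914, next 1631), Hsp90ab1 (18715, next 2666) and Dnaja1 (807, next 294). It was the lowest for Pdia6 (31.7 CPM from 2 counts, next 128). Chance alone sets a rat apart by this measure in about 1 of 20 groups, and the 8 results come from 1 library and are not independent.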

How the results depend on the processing

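The count of members with an adjusted p under 0.05 between treatments stayed at 0 under every alternative run. The count with an unadjusted p under 0.05 was 0 in edgeR with all 12 rats (1.07% of all genes). It was 2 with the set (3.85%) and 3 with the set and without rat 6 (5.35%). In DESeq2 it was 1, and 3 with the set and without rat 6. When each rat was left out it was 0 to 2 (Hsp90ab1 without rat 1 or rat 7, Hspb1 and Pdia4 without rat 5). For DESeq2, and for rats other than rat 6 left out, the share of all genes is not given, so those counts have no background beside them. The median log2 fold change of the ER chaperones, -0.05, became 0.09 with the set and without rat 6 and 0.09 in DESeq2 on the same rats, and ran from -0.11 to 0.13 over single rats left out, the upper end being without rat 6. That of the sensors and targets, 0.02, ran from -0.03 to 0.06. That of the heat shock genes, -0.10, became 0.02 and 0.02, and ran from -0.17 to 0.05.

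Leaving out rat 6 turned the sign of 12 of 36 members, 11 from lower to higher, and Hsp90ab1 moved most, by 1.34. With the set and without rat 6, edgeR and DESeq2 gave 0.13 and 0.13 for Hspa5, 0.09 and 0.09 for Hsp90b1, 0.10 and 0.10 for Calr, -0.02 and -0.01 for Atf4, 0.06 and 0.06 for Ddit3, 0.13 and 0.13 for Hsp90aa1, 0.01 and 0.01 for Hsp90ab1 and 0.08 and 0.08 for Dnaja1. Hspa5 was 0.05 with the set and all rats and 0.02 in DESeq2. With single rats left out the ranges were -0.09 to 0.16 for Hspa5, -0.59 to 0.21 for Hsp90b1, -0.47 to 0.15 for Calr, -0.04 to 0.11 for Atf4, -0.41 to 0.15 for Ddit3, -1.15 to 0.32 for Hsp90aa1, -1.44 to 0.10 for Hsp90ab1 and -0.36 to 0.09 for Dnaja1. The difference of mean log2 CPM of Chac1, 0.52 over 12 rats, was -0.46 without rat 6, also within sets. Of Ern1, the exact permutation p rose to 0.106 without rat 6. The members different between sets numbered 26, 24 to 27 with single rats left out, and 18, 0 and 0 under the other divisions of the libraries. The cause of these shifts other than the rat left out was not tested. The groups share no replicate numbers. No paired analysis was possible because rat numbers do not recur between groups. The depth of rat 6 limits every value that includes it.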
